A study of Mus musculus with 6 samples.

Results

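The genes described here encode the feedback brake on catecholamine release from the adrenal medulla and proteins that switch such receptors off. The brake is encoded by the alpha2-adrenergic receptor genes Adra2a, Adra2b and Adra2c. The others are the receptor kinase genes Grk2, Grk5 and Grk6, and the beta-arrestin genes Arrb1 and Arrb2. Every probe set whose only symbol in GEO's platform annotation was 1 of these 8 genes was taken, whatever its values. This gave 12 probe sets for 5 genes, out of 18193 genes with a symbol of their own on the array. Adra2a, Adra2b and Grk2 had no probe set under their symbols in the annotation used here, so they were not analysed. Grk2 was also looked for under its older symbol Adrbk1. No probe set with several symbols held any of the 8 genes. The animals were male C57/Bl6 mice that had undergone transverse aortic constriction (TAC, in which the aortic arch is narrowed so that the heart pumps against a raised pressure) or a sham operation 8 weeks earlier. Their adrenal medulla was microdissected from cryosections. There were 3 Affymetrix Mouse Genome 430 2.0 arrays per group, each holding RNA from both medullae of 1 animal, so replicates are animals. No age and no measure of heart function accompany the labels used here.

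Chromaffin cells of the medulla release adrenaline and noradrenaline, and alpha2-adrenergic receptors on the same cells sense the released hormone and inhibit further release through the G proteins Gi and Go. An activated receptor is phosphorylated by a G protein-coupled receptor kinase (GRK), beta-arrestin binds the phosphorylated receptor, and the receptor is uncoupled from its G protein and carried inside through clathrin-coated pits. In rodent models of heart failure, adrenal GRK2 has been described as raised and the alpha2 brake as weakened, and in mice the alpha2C receptor encoded by Adra2c has been described as the main autoreceptor for adrenal catecholamine release. TAC was compared with sham to ask which genes of the medulla differ under cardiac pressure overload.

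All values are log2 intensities, differences are TAC minus sham on that scale, and SD is the spread between 3 animals. A probe set is a group of short probes read as 1 value. Probe sets bind with different strength, so a higher level in 1 of them does not rank genes by transcript amount. Levels across probe sets were used for the log2 4 filter and to choose 1 probe set per gene by highest mean. They also entered the means and sums of markers. Values under log2 4 were treated as low, because 24007 probe sets (53.3% of the array) stayed under it on every array. The labelled tissue carried its markers: of 10 chromaffin marker genes 9 had a probe set and 7 of these read 10 or more on every array, and their mean lay between 12.43 and 13.26 on TAC arrays and between 12.67 and 13.20 on sham arrays. Arrays differed in 3′ bias, followed by the 3′ minus 5′ difference of the Gapdh control probe sets. This difference is larger where the labelled copies of transcripts are shorter. It does not tell degraded RNA from shortening during amplification. The Gapdh difference was 4.71, 3.67 and 3.98 on TAC arrays 1 to 3 and 5.15, 3.08 and 2.88 on sham arrays 1 to 3. Markers of adrenal cortex, of which 9 of 10 had a probe set, averaged 4.98 to 7.12 on TAC arrays and 5.24 to 8.58 on sham arrays, with the highest value on sham 3, and Cyp11b2 and Nr5a1 stayed under 4 throughout.

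Of the 12 probe sets, 5 reached log2 4 on at least 3 of the 6 arrays and were tested, and they read 4 genes: Grk5, Grk6, Arrb1 and Arrb2. No difference between TAC and sham passed the threshold, with 0 of the 5 at an adjusted p under 0.05 (limma, Benjamini-Hochberg over 18188 probe sets), where 0% of all tested probe sets were called. At an unadjusted p under 0.05 there was 1 of the 5, a Grk6 probe set that was higher with TAC, against 6.94% of all tested (4.65% higher and 2.29% lower). The same probe set was the only 1 of the 5 whose groups did not overlap, against 13% of all tested (9.01% with TAC higher and 4.01% with TAC lower). Of the 5 differences 2 were above 0 and 3 below, where 54.7% of all tested were above 0. Their median was -0.16, beside 0.05 over all tested probe sets. With 5 probe sets, a count of 1 does not set these genes apart from the rest of the array.

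**Figure D1:**
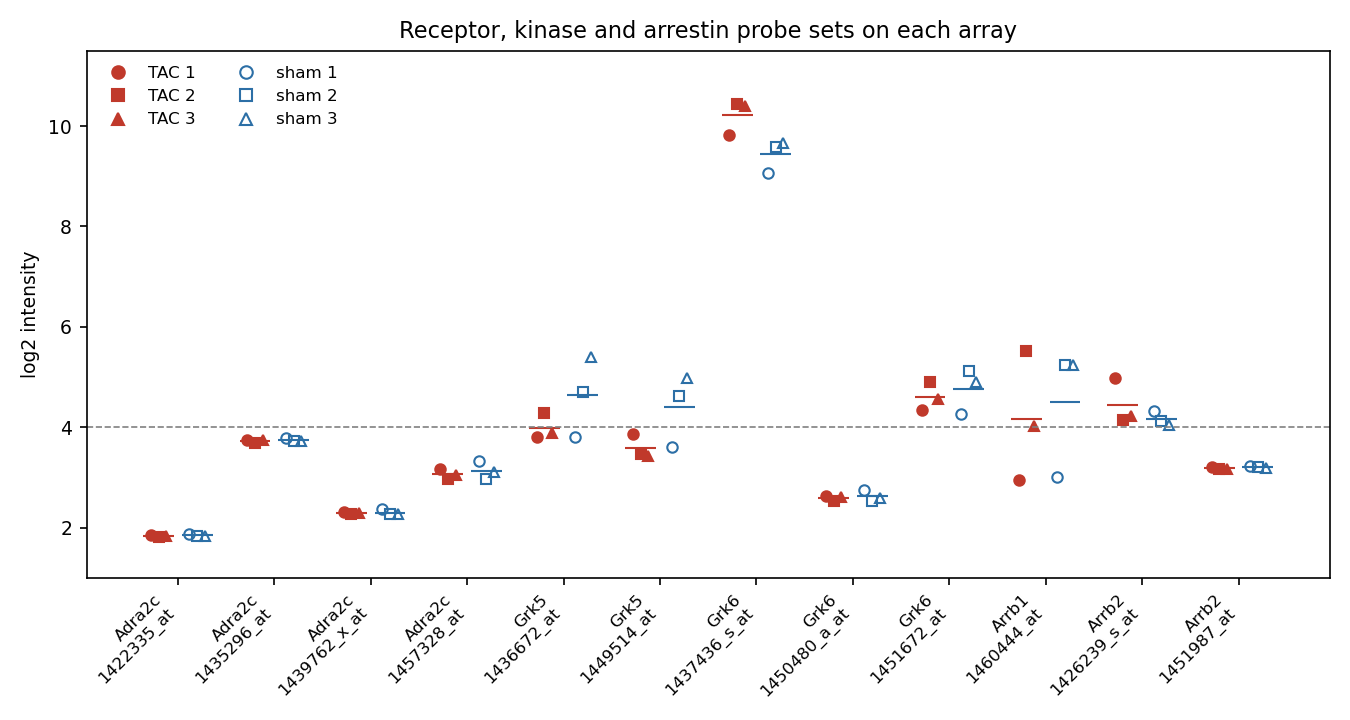
Log2 intensity (vertical axis) of the 12 probe sets on the 6 arrays. Filled red symbols are TAC, open blue symbols sham, short lines group means, and the dashed line is log2 4. The Grk6 probe set 1437436_s_at is the only one with all TAC arrays (9.81 to 10.43) above all sham arrays (9.06 to 9.66), and the 4 Adra2c probe sets stay under 4.

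Among the receptor genes, Adra2c stayed under log2 4 in all 24 of its values and was not tested. Its probe set 1457328_at read 3.17, 2.97 and 3.05 on TAC arrays 1 to 3, against 3.32, 2.97 and 3.11 on sham arrays 1 to 3. Probe set 1435296_at read 3.74, 3.69 and 3.74 on TAC arrays, against 3.78, 3.72 and 3.72 on sham arrays. The groups overlapped in both. The other 2 probe sets lay between 1.82 and 1.88 (1422335_at) and between 2.26 and 2.36 (1439762_x_at, whose suffix marks probes that can cross-hybridise). Across the 6 arrays the 4 probe sets spanned only 0.06 to 0.34, near the median span of 0.19 of all probe sets that stayed under 4, while tested probe sets spanned a median of 1.38. Each of the 4 was highest on sham 1 and next highest on TAC 1. The median over all probe sets was also highest on those arrays, at 3.44 on sham 1 and 3.34 on TAC 1, against 3.19 to 3.27 on the other 4. The 4 probe sets also moved with the Gapdh difference of the arrays (r = 0.76 to 0.93). Values this low give no measure of a change in the receptor transcript in either direction and do not show that it is absent.

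Grk6 encodes a kinase of the GRK4 subfamily that sits at the membrane and phosphorylates many activated receptors. Its probe set 1437436_s_at read 9.81, 10.43 and 10.40 on TAC arrays 1 to 3, against 9.06, 9.59 and 9.66 on sham arrays 1 to 3. All TAC arrays lay above all sham arrays, with the gap between TAC 1 and sham 3 the narrowest. The means were 10.21 ± 0.35 (SD) for TAC and 9.44 ± 0.33 for sham, 1.72-fold higher with TAC, a difference of 0.78 ± 0.30 (SE, 95% interval 0.05 to 1.51). The unadjusted p was 0.0394 and the limma adjusted p 0.693, so the difference did not pass. A difference of this size or larger, in either direction, was read by 13% of all tested probe sets.

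Other readings of Grk6 did not share this difference. Probe set 1451672_at read 4.34, 4.91 and 4.57 on TAC arrays, against 4.26, 5.12 and 4.90 on sham arrays. The groups overlapped, and the difference was -0.16 ± 0.32 (SE, 95% interval -0.93 to 0.62, limma adjusted p = 0.986). The third probe set, 1450480_a_at, stayed between 2.53 and 2.76 and was not tested. The suffix of 1437436_s_at marks probes shared by several transcripts, and in the RefSeq gene table Prr7 lies within 5 kb of Grk6, so a share of its signal from another transcript cannot be told apart from Grk6 in these values.

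The Grk6 reading was set beside the 3′ bias of the arrays. On the 3 arrays of larger Gapdh difference (TAC 1, TAC 3 and sham 1) probe set 1437436_s_at differed by 1.04, and on the other 3 (TAC 2, sham 2 and sham 3) by 0.81, with 1 array on one side in each case and no test. The sign could not differ there, since the groups do not overlap. With the Gapdh difference as a covariate it was 0.91 (limma adjusted p = 0.0921). In that fit 3843 of 18188 probe sets had a limma unadjusted p under 0.05, against 1263 without the covariate, and 0 passed after adjustment. Leaving out each array in turn gave 1437436_s_at a difference of 0.59 to 0.98. Only with array weights did its call pass (0.76, limma adjusted p = 0.0106). In that setting 36.8% of all probe sets passed and most of the TAC weight was on TAC 3. Of 6 markers of sustentacular and Schwann cells, the supporting cells of the medulla, 4 had a probe set, none under 4 on every array. Sox10 (difference 0.77, limma adjusted p = 0.560) and L1cam (0.81, adjusted p = 0.614) had all TAC arrays above all sham arrays, while Gfap (0.89, adjusted p = 0.982) and S100b (-0.21, adjusted p = 0.985) overlapped. The mean of the 4 overlapped too and was 6.45, 7.68 and 7.46 on TAC arrays 1 to 3 and 6.21, 6.69 and 6.99 on sham arrays 1 to 3. Their summed linear intensity was 2637 to 2777 on TAC arrays and 1365 to 2053 on sham arrays, most of it from L1cam. The summed intensity of 6 macrophage markers did not overlap either (3529 to 5726 on TAC, 2169 to 3290 on sham arrays). Their mean log2 overlapped (5.71 to 7.14 against 5.45 to 7.08). Csf1r had all TAC arrays above all sham arrays (1.01, limma adjusted p = 0.475), and C1qb (0.69) overlapped. Adgre1, Cd68, C1qa and C1qc were lower on average with TAC. The part of either cell type in the Grk6 reading was not tested.

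Grk5 encodes another member of that subfamily, a kinase also known to act in the nucleus of heart muscle cells. Its probe set 1436672_at read 3.81, 4.28 and 3.89 on TAC arrays 1 to 3, against 3.81, 4.70 and 5.39 on sham arrays 1 to 3. Sham 2 and sham 3 lay above every TAC array, and sham 1 was level with the lowest TAC array, so the groups overlapped. The difference was -0.64 ± 0.44 (SE, 95% interval -1.70 to 0.42, limma adjusted p = 0.917). The probe set entered the test through TAC 2, sham 2 and sham 3 alone, the 3 arrays on which it reached log2 4.

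The second Grk5 probe set, 1449514_at, was likewise highest on sham 2 and sham 3. It read 3.86, 3.47 and 3.42 on TAC arrays, against 3.60, 4.62 and 4.98 on sham arrays. All TAC values and sham 1 were under 4, so it was left out of the test, and in a fit without the filter the difference was -0.82 (95% interval -1.82 to 0.18, limma unadjusted p = 0.0890), which did not pass after adjustment. In the RefSeq gene table Zfp950 overlaps Grk5, and without probe sequences its signal cannot be told apart here. Over the 6 arrays the 2 probe sets correlated at r = 0.89, a description only, since both share the same RNA and the same arrays. On the 3 arrays of larger Gapdh difference, where both lay under 4, they differed by 0.04 each, and within the other 3 by -0.77 (1436672_at) and -1.33 (1449514_at).

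Sham 2 and sham 3, the arrays on which Grk5 was high, also had the lowest Gapdh differences and the highest mean signal of fibroblast markers. All 6 fibroblast markers had a probe set and none stayed under 4 on every array. Their mean was 5.92, 7.33 and 6.83 on TAC arrays 1 to 3 and 6.87, 8.43 and 8.47 on sham arrays 1 to 3. Their summed linear intensity ran from 487 to 1529 on TAC arrays and from 1431 to 3901 on sham arrays. Col1a2, Col3a1, Dcn and Lum were highest on sham 2 and sham 3, but the other markers were not. Col1a1 was highest on TAC 1, at 6.12, and Pdgfra read 8.67 on TAC 2, against 8.72 on sham 2 and 8.18 on sham 3. Adrenal cortex markers had their highest mean on sham 3 (8.58), where both Grk5 probe sets were highest, but read 5.24 on sham 2. Without sham 3 the difference of 1436672_at was -0.26. The part of 3′ bias, of fibroblast content and of cortex content in the Grk5 readings was not tested beyond the Gapdh covariate fit. In that fit 1436672_at differed by -0.41 (limma adjusted p = 0.369). In dissected tissue, fewer cells of a type and less RNA per cell cannot be told apart.

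The beta-arrestins bind phosphorylated receptors, stop their G protein signalling and link them to clathrin. Arrb1, which encodes beta-arrestin 1, had 1 probe set, 1460444_at. It read 2.95, 5.52 and 4.02 on TAC arrays 1 to 3, against 3.01, 5.23 and 5.24 on sham arrays 1 to 3. Each group held 1 array under 4, TAC 1 and sham 1, and the highest array of all was TAC 2, so the groups overlapped widely. The difference was -0.33 ± 0.87 (SE, 95% interval -2.45 to 1.79, limma adjusted p = 0.990), an interval that spans more than a 2-fold change either way.

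The spread of Arrb1 within each group moved with the 3′ bias of the arrays. It averaged 3.33 over the 3 arrays of larger Gapdh difference and 5.33 over the other 3. Over the 6 arrays it correlated with the Gapdh difference at r = -0.91, and Grk6 1451672_at and Grk5 1436672_at did so at r = -0.94 and r = -0.88. This was not rare: 11.7% of all tested probe sets were at or below the value of Arrb1, and the median r over all tested probe sets was -0.50. Grk6 1437436_s_at was nearer to 0, at r = -0.30, and Arrb2 1426239_s_at ran the other way, at r = 0.65. Within the larger-difference arrays Arrb1 differed by 0.48, within the other 3 by 0.29, and with the covariate by 0.18 (limma adjusted p = 0.844), each opposite in sign to the difference over all 6 arrays. Without TAC 1 the Arrb1 difference was 0.28, and without sham 1 it was -1.07, so its direction rested on which of these arrays entered.

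**Figure D2:**
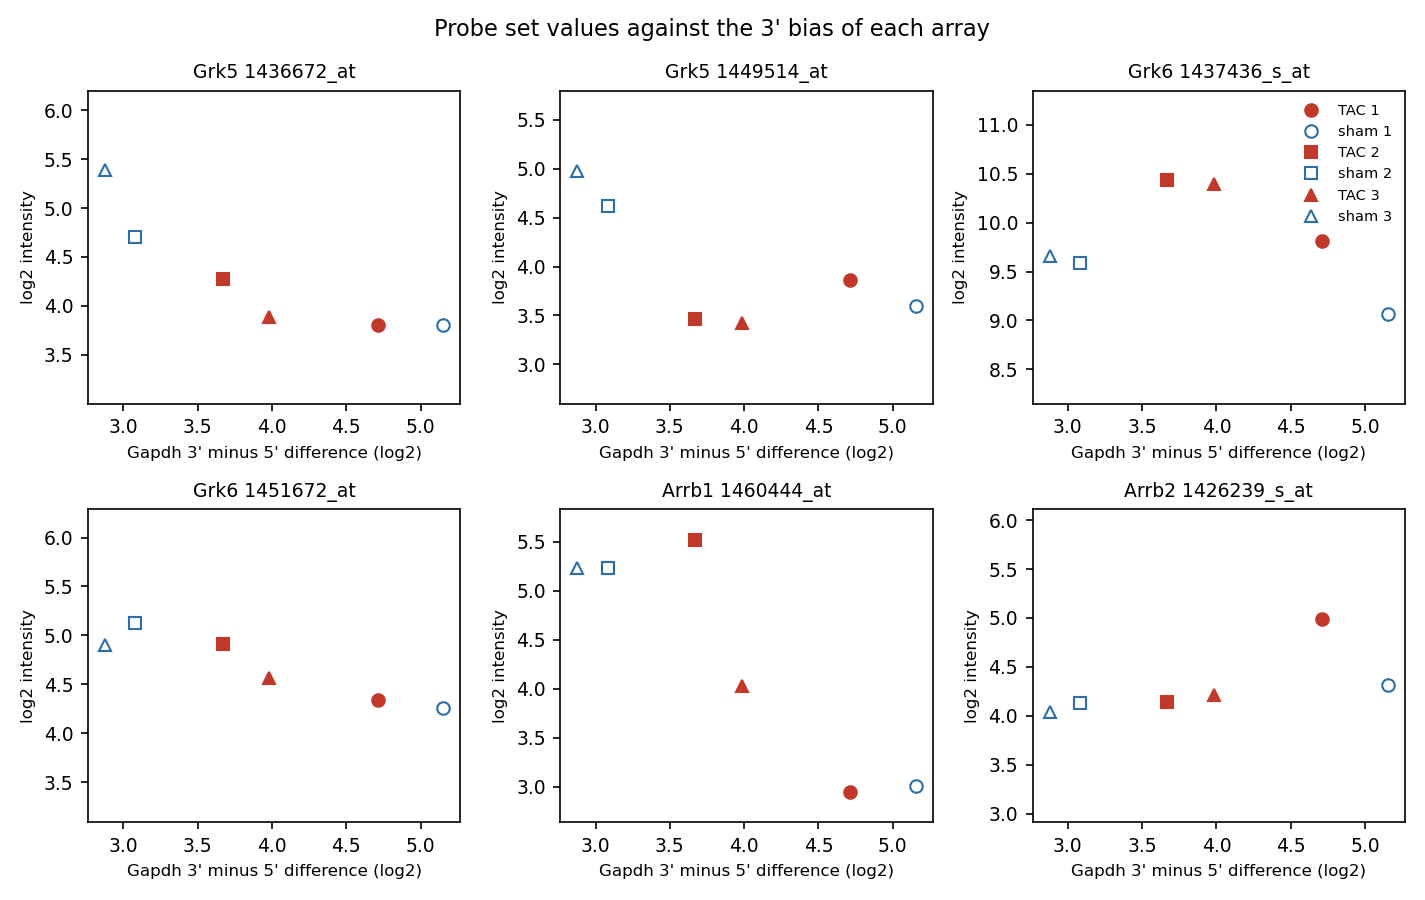
Log2 intensity (vertical axes, all of equal span) of 6 probe sets against the Gapdh 3′ minus 5′ control difference of each array (horizontal axes, log2). Filled red symbols are TAC and open blue symbols sham. Arrb1 and Grk6 1451672_at are low on the arrays with the largest difference in both groups (r = -0.91 and r = -0.94), while TAC arrays lie above sham arrays for Grk6 1437436_s_at.

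Arrb2 encodes beta-arrestin 2, the isoform that binds many receptors most tightly during internalisation. Its probe set 1426239_s_at read 4.98, 4.14 and 4.22 on TAC arrays 1 to 3, against 4.32, 4.13 and 4.04 on sham arrays 1 to 3. TAC 1 stood above the other 5 arrays, which lay between 4.04 and 4.32, just over the filter. The difference was 0.28 ± 0.30 (SE, 95% interval -0.45 to 1.02, limma adjusted p = 0.979). Without TAC 1 it was 0.01, so the whole difference came from that array. The second probe set, 1451987_at, stayed between 3.17 and 3.22 and was not tested. Arrb2 1426239_s_at ran opposite to Arrb1 across the 6 arrays (r = -0.75), and Arrb1 ran with Grk6 1451672_at (r = 0.96). These values are descriptions of 6 arrays that differ in 3′ bias.

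For each tested gene the most similar other gene over the 6 arrays was looked up among 9813 genes by Pearson's r. It was Ppp1r13b for Grk6 (r = 0.999), Flad1 for Grk5 (r = 0.995), Ten1 for Arrb1 (r = 0.997) and Psmd7 for Arrb2 (r = 0.994). With 6 arrays such values are common, and r was 0.9 or more with 551 genes for Grk6, 332 for Grk5, 2222 for Arrb1 and 144 for Arrb2. Ppp1r13b read 7.51, 8.65 and 8.55 on TAC arrays, against 6.18, 7.17 and 7.22 on sham arrays, a difference of 1.38 ± 0.45 (SE, limma adjusted p = 0.591).

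The surrounding pathway was described from 7 lists holding 83 genes, of which 73 had a probe set and 58 were tested, each by its probe set with the highest mean. None passed the threshold in either direction (0 of 58), and 32 were above 0 and 26 below, with a median of 0.04 beside 0.09 over all 10181 genes tested. At an unadjusted p under 0.05 there were 3 higher and 1 lower, 4 of 58 genes, against 7.29% of all genes. The groups did not overlap for 8 of the 58, against 14.2% of all genes.

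The GRKs and arrestins beyond the 8 genes were mostly low. Grk3, the kinase closest in sequence to Grk2, was the only 1 of 5 such genes tested, and Grk1, Grk4 and the visual arrestin genes Sag and Arr3 did not reach the filter. Grk3 1434450_s_at read 8.88, 8.91 and 9.10 on TAC arrays, against 8.91, 8.62 and 8.55 on sham arrays (difference 0.27 ± 0.23 SE, 95% interval -0.28 to 0.82, limma adjusted p = 0.946). Grk3 1440801_s_at read 8.32, 7.98 and 8.30 on TAC arrays, against 9.52, 8.50 and 8.70 on sham arrays (difference -0.70 ± 0.33 SE, 95% interval -1.52 to 0.11, limma adjusted p = 0.779). All TAC arrays lay below all sham arrays in the second but not in the first, so the direction for Grk3 depended on the probe set, and both carry the suffix for shared probes. Of 6 other adrenergic receptor genes listed, the alpha1 receptor gene Adra1b was the only 1 with a probe set, and it stayed between 1.94 and 2.10.

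Among Gi and Go alpha subunits and beta-gamma subunits, 17 of 20 genes were tested, 7 above 0 and 10 below, with a median of -0.05 and 0 passing. Gnai2, which encodes an alpha subunit of the inhibitory G protein Gi, read 12.10, 11.79 and 11.93 on TAC arrays, against 11.41, 11.03 and 10.73 on sham arrays by probe set 1435652_a_at (difference 0.88 ± 0.27 SE, limma adjusted p = 0.560). Its probe set 1419449_a_at had the opposite order, with 7.50, 6.97 and 6.46 on TAC arrays, against 9.25, 7.96 and 7.94 on sham arrays (difference -1.41 ± 0.47 SE, limma adjusted p = 0.611). Neither set of arrays overlapped, so the probe sets of Gnai2 contradicted each other in direction. Gng3, a gamma subunit gene of neurons, read 9.80, 9.69 and 9.83 on TAC arrays, against 10.23, 10.62 and 10.49 on sham arrays (difference -0.67 ± 0.22 SE, limma adjusted p = 0.611). Gng4, another gamma subunit gene, differed by 0.34 ± 0.20 (1447669_s_at, limma adjusted p = 0.883) and by -0.66 and -0.16 in its other 2 tested probe sets. Gnao1, the Go alpha subunit gene, differed by -0.01 ± 0.30 (1448031_at, SE, 95% interval -0.74 to 0.73) and by -0.28 in its other tested probe set.

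Of the effectors that alpha2 receptors act on, 10 of 15 genes were tested, 7 above 0 and 3 below, with a median of 0.24 and 0 passing. Adcy7 and Adcy5 encode adenylyl cyclases, the enzymes that Gi inhibits, and differed by 0.54 ± 0.26 (SE, limma adjusted p = 0.788) and 0.30 ± 0.25 (adjusted p = 0.946). Other probe sets of both lay below 0, at -0.88 for Adcy7 1450065_at, which was not tested, and at -0.07 for Adcy5 1447696_x_at. Cacna1b, the N-type calcium channel gene through which beta-gamma subunits restrain release, read 10.08, 10.13 and 10.38 on TAC arrays, against 10.07, 9.65 and 9.61 on sham arrays by probe set 1460608_at (difference 0.42 ± 0.25 SE, limma adjusted p = 0.880). The groups did not overlap there, by a margin of 10.08 on TAC 1 against 10.07 on sham 1. Its probe sets 1436602_x_at and 1439612_at differed by 0.31 and -0.999.

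Of the partners of GRKs and arrestins, 9 of 13 genes were tested, 7 above 0 and 2 below, with a median of 0.11 and 0 passing. Git2 encodes a GTPase-activating protein that binds GRKs and takes part in receptor internalisation. It read 8.97, 8.99 and 8.86 on TAC arrays, against 7.81, 7.94 and 8.05 on sham arrays, 2.01-fold higher with TAC (difference 1.01 ± 0.21 SE, 95% interval 0.50 to 1.52). The unadjusted p was 0.00284 and the limma adjusted p 0.417, and its other 4 probe sets stayed under 4. Nedd4, a ubiquitin ligase gene, differed by -0.59 ± 0.54 (1450431_a_at, limma adjusted p = 0.954), by -2.03 ± 0.31 (1421955_a_at, adjusted p = 0.384) and by 0.15 ± 0.29 (1451109_a_at, adjusted p = 0.986). The second of these probe sets read 5.93, 6.82 and 6.08 on TAC arrays, against 8.28, 8.12 and 8.52 on sham arrays, without overlap. Usp33, a deubiquitinase gene whose product acts on beta-arrestin 2, differed by 0.77 ± 0.46 (limma adjusted p = 0.880). Pebp1, whose product inhibits GRK2 once phosphorylated, differed by 0.11 ± 0.27 (1438649_x_at, SE, 95% interval -0.54 to 0.76) and by -0.01 in its other probe set.

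In clathrin uptake and recycling, 17 of 18 genes were tested, 8 above 0 and 9 below, with a median of -0.20 and 0 passing. Dnm1 encodes dynamin 1, which pinches vesicles off the plasma membrane. Its probe set 1460365_a_at read 10.90, 10.75 and 11.09 on TAC arrays, against 10.31, 10.14 and 9.78 on sham arrays, without overlap (difference 0.83 ± 0.25 SE, limma adjusted p = 0.560). Dnm2, the broadly expressed dynamin gene, differed by 0.94 ± 0.41 (1425135_a_at, limma adjusted p = 0.734), 0.34 (1423629_at) and 0.14 (1425136_x_at). Another Dnm1 probe set, 1427754_a_at, and further Dnm2 probe sets are not reported here. Rab4a, a GTPase gene of rapid receptor recycling, differed by 0.63 ± 0.29 (adjusted p = 0.776). Cltc, the clathrin heavy chain gene, differed by -0.68 ± 0.59 (1454626_at, adjusted p = 0.950) and by 0.65 (1439094_at). Of the alpha-arrestins, distant relatives of the beta-arrestins, 4 of 6 were tested with a median of 0.16, and Txnip (0.53 ± 0.87), Arrdc3 (0.37 ± 0.98) and Arrdc1 (-0.06 ± 0.31) had limma adjusted p-values from 0.983 to 0.998.

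**Figure D3:**
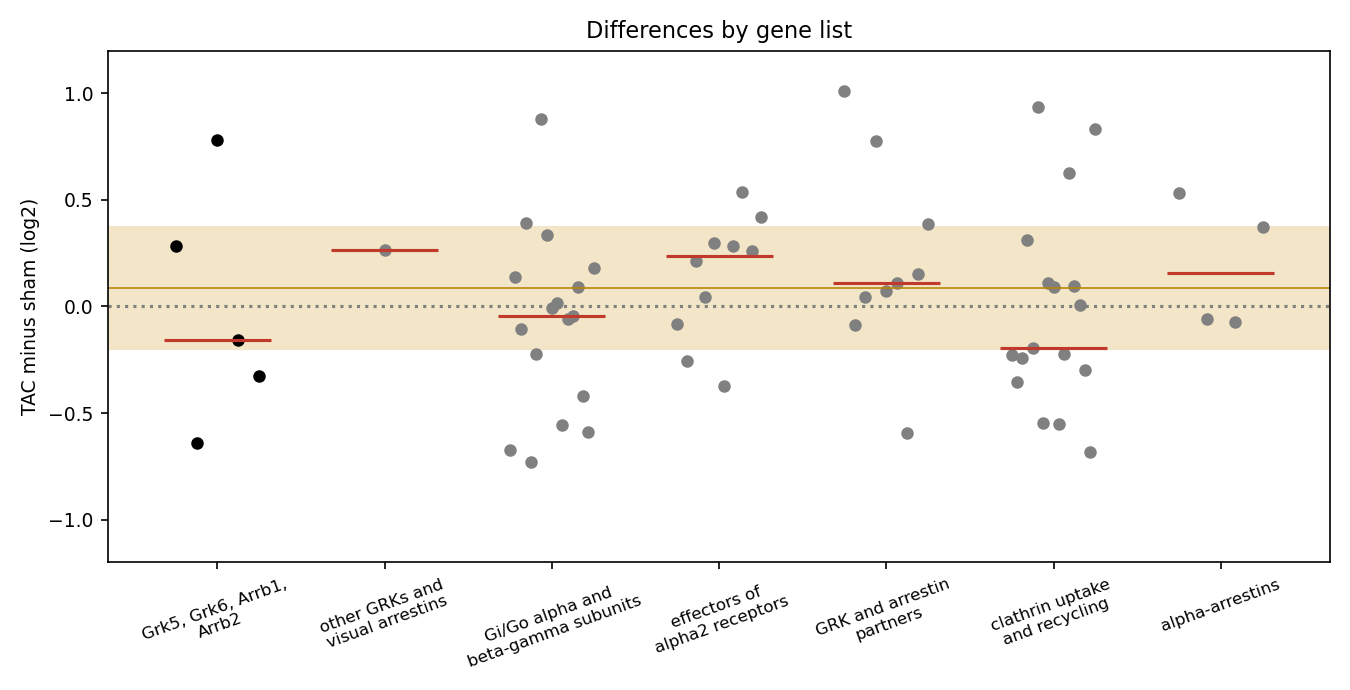
TAC minus sham difference (log2, vertical axis) of each tested gene by list. Black points are the 5 tested probe sets of Grk5, Grk6, Arrb1 and Arrb2, grey points 1 probe set per pathway gene, red lines list medians, and the band the middle 50% of all genes (-0.20 to 0.37, line at the median of 0.09). Every list holds points on both sides of 0 except the single point of Grk3.

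**Figure D4:**
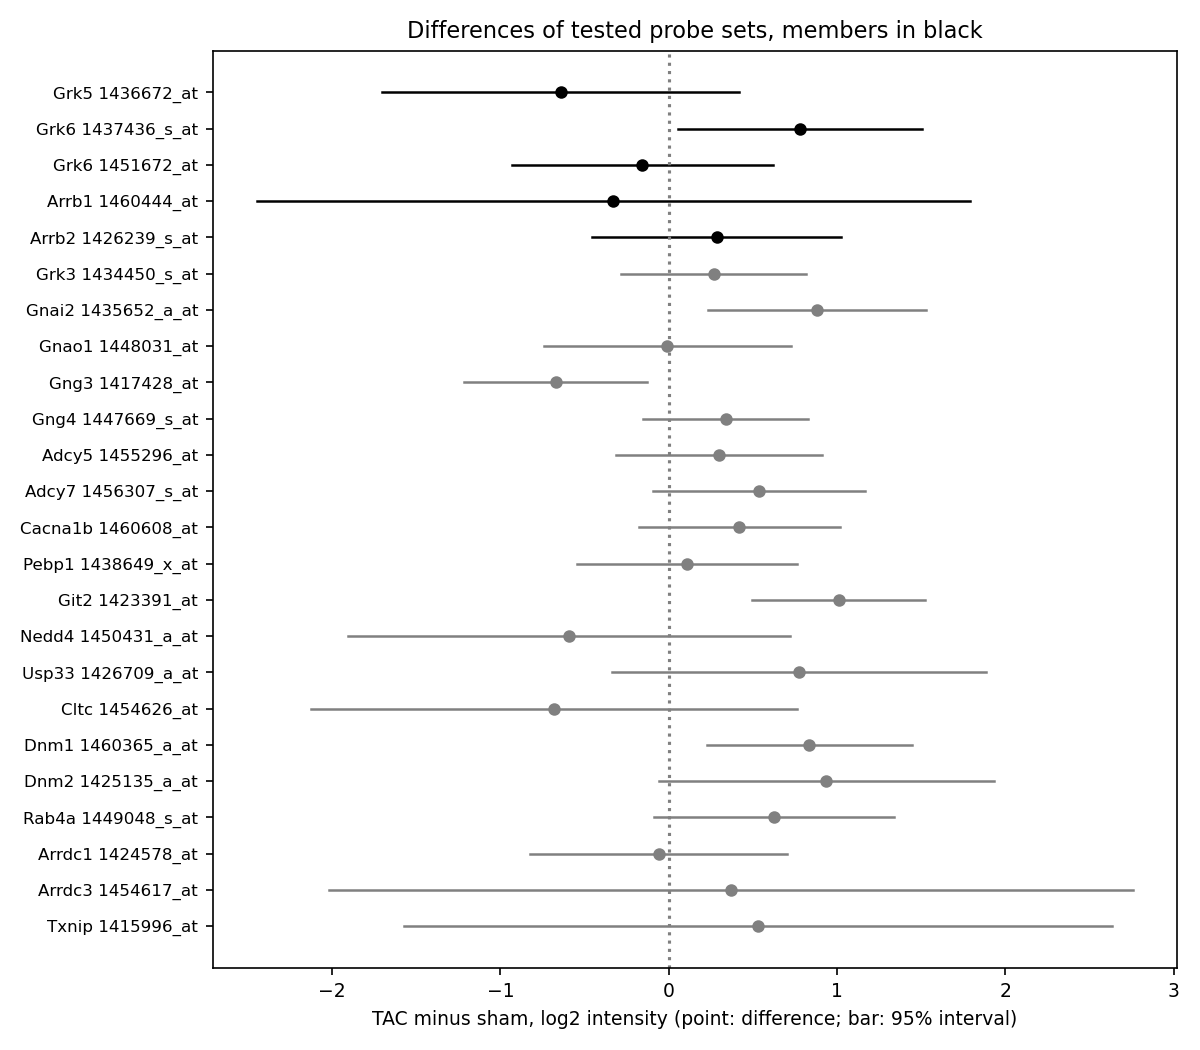
TAC minus sham difference (log2, horizontal axis) with its 95% interval from limma, for the 5 tested probe sets of Grk5, Grk6, Arrb1 and Arrb2 (black) and the named pathway genes (grey). The interval of Grk6 1437436_s_at, 0.05 to 1.51, excludes 0 before adjustment, and that of Arrb1, -2.45 to 1.79, is the widest among the black ones.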

How the data were processed

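The authors deposited 1 linear intensity per probe set and array, computed by GCRMA, per the submitters' processing notes (version and options: not given in the sources used here). Per the labels' protocols, a 3′-primed amplification of 2 cycles preceded hybridisation. From these values log2 was taken with no further normalization. Of 45101 probe sets, 64 controls were left out, and the 18188 that reached log2 4 on 3 or more of the 6 arrays were tested. The comparison of TAC with sham used limma (version 3.58.1, under R version 4.3.3), its lmFit and eBayes functions and 2-sided p-values without covariates, and Benjamini-Hochberg adjustment over all tested probe sets at 0.05. The fit was tested on simulated data. The number of arrays limits precision, with a median SE of 0.39 per difference. A gene with several tested probe sets was represented by the one with the highest mean. Symbols came from GEO's platform annotation, and the Entrez identifiers of all 12 member probe sets gave the same symbol in RefSeq's GRCm38.p6 table. No coordinates are given because the values name no build. Named were all members, the 3 genes with the smallest p per pathway list, a set of preset genes (some are not reported here), and the most similar gene of each tested member, for which unnamed clones, expressed tags and gene predictions were skipped. Members and lists were chosen with earlier results of these data known. Alternatives covered filters, scalings, array weights, a Gapdh difference covariate, the replicate number as a block, a variance trend and leaving out each array.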

Additional observations from a re-analysis of the deposited data

How the results depend on the processing

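No tested probe set of Grk5, Grk6, Arrb1 or Arrb2 passed the threshold in any setting except array weights, where 3 of 5 (Grk6 1437436_s_at, Grk5 1436672_at and Arrb1) and 6698 of all probe sets did. The arrays were weighted 0.396, 0.357 and 6.11 (TAC 1 to 3) and 0.143, 2.73 and 2.96 (sham 1 to 3). Arrb1 was -1.14 and Grk5 -1.12 there. Under the filter on means of at least log2 6, only Grk6 1437436_s_at was left, so the median over probe sets and over genes was 0.78. With the Gapdh covariate Arrb1 turned to 0.18, and the member median over probe sets and over genes to 0.18. Leaving out each array in turn gave 0 calls throughout, member medians from -0.41 to 0.04 over probe sets and from -0.35 to 0.15 over genes (-0.02 over all arrays), Arrb1 from -1.07 to 0.28, with its sign turned without TAC 1, sham 2 or sham 3, and Grk6 1451672_at from -0.41 to 0.0235, the last without sham 2. Grk5 1436672_at ran from -1.05 without sham 1 to -0.26 without sham 3. Within the 3 arrays of larger and the 3 of smaller Gapdh difference, a split chosen after seeing the data, the median over probe sets was 0.28 and 0.05. Grk6 1437436_s_at stayed between 0.59 and 0.98 in every planned setting. The cause of these shifts was not tested. Same-numbered arrays of the groups deviated together at r = 0.76, 0.78 and -0.22. TAC 2 and sham 3, of unlike number, did so at r = 0.71. With 3 arrays per group, these values cannot tell whether the numbers pair the animals. With the replicate block 0 of 18188 probe sets passed, and Grk6 1437436_s_at had a limma adjusted p of 0.209. Centring the arrays on their medians or cyclic loess gave 50.7% and 43.4% of unadjusted calls higher with TAC, against 67.0% without, and Grk6 1437436_s_at to 0.75 and 0.67. Values under log2 4 were 24 of 24 for Adra2c, 7 of 12 for Grk5, 6 of 12 for Arrb2, 6 of 18 for Grk6 and 2 of 6 for Arrb1.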
